A study of Homo sapiens with 2 samples.

Results

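The genes for CD86 and for 8 other proteins of antigen presentation and T cell costimulation were examined for peaks of GFI1 chromatin immunoprecipitation. A gene was assigned every peak whose midpoint lay inside its hg38 span or within 50 kb of it. The 9 genes, out of 20037 protein-coding genes in the annotation, were CD86, CD80, CD83, CD40, CIITA, CD74, HLA-DRA, HLA-DPA1 and HLA-DMA. This gave 8 of the 7687 peaks of the antibody ab21061 and 7 of the 7562 peaks of the antibody sc8558. The genes were selected on peak positions and scores of these lists, so counts, positions and scores are given as a description.

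Both libraries came from NB4, an established line of acute promyelocytic leukemia in which PML is fused to RARA, grown without any drug that the labels name. Chromatin was fixed with formaldehyde and immunoprecipitated with ab21061 or with sc8558, antibodies stated to recognise different parts of GFI1, with 1 library each and no replicate. The labels conflict in places: the protocol names antibodies against the fusion protein, and 1 title, for sc8558, has GFI2, while the antibody labels have GFI1 for both and were followed. Peak lists do not measure expression, so the identity of the cells could not be checked against marker genes, and sequencing depth is unknown.

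GFI1 is a zinc-finger repressor that recruits histone-modifying complexes to DNA and takes part in the choice between granulocyte and monocyte fates. T cells recognise peptides held by MHC class II molecules on antigen-presenting cells, and they also need a second signal from ligands such as CD86 and CD80, which bind CD28 and CTLA4. CIITA is the coactivator that switches on the class II genes, CD74 is the invariant chain that accompanies new class II molecules, and HLA-DMA encodes a chain of the factor that loads peptides onto them. Promyelocytic leukemia cells typically lack HLA-DR on their surface.

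The promoter regions below, from RefSeq on GRCh38.p14, are shown because each is a listed start of CD86 or CD74, or the BRD2 start nearest to the shared peaks in the HLA-DMA window. Capitals mark AATC, the core of the motif that GFI1 recognises, or its reverse complement GATT. The first CD86 start lay under a peak of both antibodies, and the later CD86 start and the CD74 start lay under none. The BRD2 start lay under the sc8558 peak that falls in the HLA-DMA window and under no ab21061 peak. Each runs 5′ to 3′ on the gene's strand, from 250 bases before the start to 50 bases from it on.
CD86, first start, chr3:122055112-122055411, plus strand: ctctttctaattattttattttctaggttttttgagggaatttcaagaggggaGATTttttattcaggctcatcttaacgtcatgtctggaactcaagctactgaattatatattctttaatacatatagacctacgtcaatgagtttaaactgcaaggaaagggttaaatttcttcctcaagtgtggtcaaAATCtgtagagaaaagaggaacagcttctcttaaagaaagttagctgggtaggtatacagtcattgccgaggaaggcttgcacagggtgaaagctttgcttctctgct
CD86, later start, chr3:122077534-122077833, plus strand: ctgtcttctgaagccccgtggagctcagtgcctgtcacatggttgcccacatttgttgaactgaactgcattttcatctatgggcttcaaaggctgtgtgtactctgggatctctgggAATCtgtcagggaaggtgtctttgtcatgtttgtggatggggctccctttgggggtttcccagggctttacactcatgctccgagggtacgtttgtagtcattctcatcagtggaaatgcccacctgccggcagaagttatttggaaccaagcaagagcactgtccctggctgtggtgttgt
CD74, chr5:150412861-150413160, minus strand: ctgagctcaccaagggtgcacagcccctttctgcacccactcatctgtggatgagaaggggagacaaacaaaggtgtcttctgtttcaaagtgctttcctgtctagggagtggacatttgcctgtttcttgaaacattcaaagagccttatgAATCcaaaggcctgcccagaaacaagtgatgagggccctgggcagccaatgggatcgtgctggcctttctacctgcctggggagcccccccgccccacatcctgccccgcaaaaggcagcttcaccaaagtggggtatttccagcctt
BRD2, start at 32970930, chr6:32970680-32970979, plus strand: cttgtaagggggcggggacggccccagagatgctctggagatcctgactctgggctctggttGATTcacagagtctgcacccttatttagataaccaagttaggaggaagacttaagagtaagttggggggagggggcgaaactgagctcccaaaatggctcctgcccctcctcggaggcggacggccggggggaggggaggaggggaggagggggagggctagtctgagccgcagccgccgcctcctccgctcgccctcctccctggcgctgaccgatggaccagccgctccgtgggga

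GFI1 peaks were found at 3 of the 9 genes with each antibody, and those were the same 3 genes, CD86, CD74 and HLA-DMA. Among all protein-coding genes, 31.7% had an ab21061 peak and 32.4% an sc8558 peak in windows drawn the same way. The same 3 members held an overlapping pair, meaning a peak of each list sharing at least 1 bp with both midpoints in the window, against 24.3% of all genes. The member count is thus near the background. The other 6 genes, CD80, CD83, CD40, CIITA, HLA-DRA and HLA-DPA1, had 0 peaks of either list, which was also true of 61.7% of all genes. A longer gene has a wider window. Of the 7 members shorter than 50 kb, 2 had a pair, and 20.5% of all genes of that size did. The remaining members, CD86 and CIITA, are 65.8 and 76.8 kb long, and 29.2% of genes of 50 to 100 kb had a pair.

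**Figure D1:**
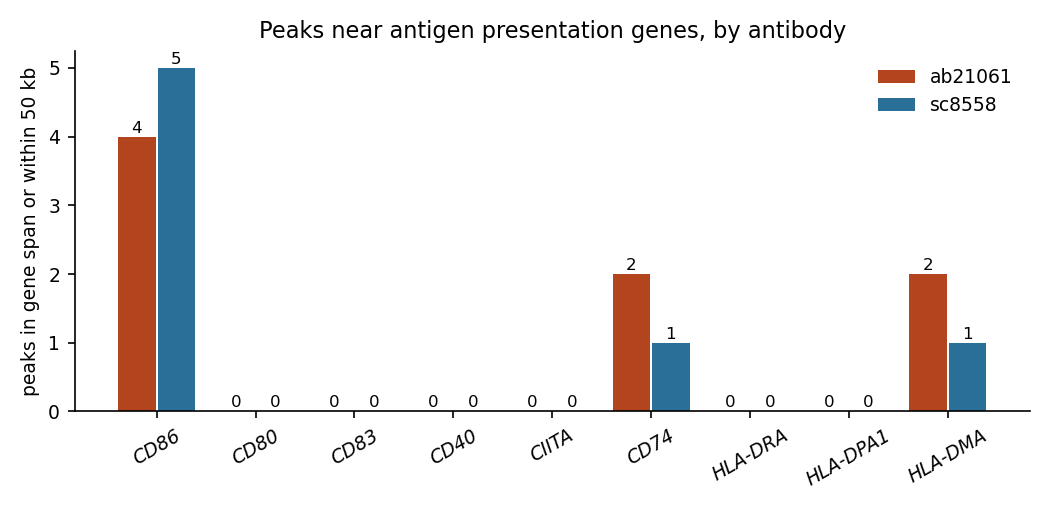
Number of peaks (y axis) whose midpoint lay in the span of each gene or within 50 kb of it (x axis), with ab21061 on the left and sc8558 on the right of each gene. CD86 had 4 and 5 peaks, CD74 and HLA-DMA had 2 and 1, and the other 6 genes had 0.

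CD86 encodes a costimulatory ligand of the B7 family that monocytes, dendritic cells and B cells display. It lies on chromosome 3 from 122055362 to 122121136 (gene ID 942, plus strand) and held 4 ab21061 and 5 sc8558 peaks. Their midpoints all lay inside the gene, and neither flank of 50 kb added a peak. The 4 ab21061 peaks each had an overlapping sc8558 peak, so the gene held 4 pairs. An overlapping pair inside the span was found for 8.28% of all genes, and at least 4 for 0.27%. At least 4 pairs in the window were found for 0.709% of all protein-coding genes and for 0.652% of those of 50 to 100 kb. The cutoff of 4 is the count of CD86 itself. The first CD86 pair falls in the span by an ab21061 midpoint only 0.01 kb inside it. Counted inside the span alone, 3 of 2913 genes of 50 to 100 kb (0.103%) held at least 4 pairs. The other two, chosen after their values were seen, were RHOH and SLA. With pairs less than 1 kb apart joined, a choice made after seeing the data, CD86 held 3 regions, and 5 genes of that size (0.172%) and 0.499% of all genes held as many, against 0.103% and 0.27% without joining.

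The first pair lay on the start of CD86. The ab21061 peak ran from 122054842 to 122055902 with a score of 155.64, and the sc8558 peak ran from 122055154 to 122055851 with a score of 165.66. The score is the peak caller's own value, which MACS derives from a p-value on a negative log scale, and is comparable only within a list. These scores were at or above those of 80.2% of ab21061 peaks and 82.8% of sc8558 peaks. The midpoints were 0.01 and 0.141 kb from the first listed start. The whole printed promoter of 300 bases lay under the ab21061 peak and 258 of its bases under the sc8558 peak. ILDR1, a tricellular junction protein gene on the minus strand annotated from 121987323 to 122061655, overlaps CD86 with the 5′ side of its span. The pair therefore lies inside the ILDR1 annotation and across the start of the CD86 one. The ILDR1 start in the promoter table is at 122022247. Of the 6 members with a start in the promoter table, CD86 was the 1 with a start covered by both lists, and 1.38% of 15843 protein-coding genes were.

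The next pairs lay inside the gene, downstream of the first start. One had an ab21061 peak from 122066794 to 122067595 and an sc8558 peak from 122066772 to 122067723, with scores of 179.54 and 167.79. These were the highest CD86 scores of each list, at percentiles 84.1 and 83.1. A neighbouring pair from 122067746 to 122068481 scored 76.94 and 78.15, at percentiles 44.6 and 46.7. Only 0.023 kb separated the sc8558 peaks of these neighbours, so they are nearly continuous in that list. The ab21061 peaks stood farther apart, ending at 122067595 and beginning again at 122067752. The pairs stood 11.8 and 12.6 kb beyond the first start by their ab21061 midpoints. The gene end nearest to both was that of ILDR1, 5.54 and 6.36 kb from the same midpoints. The nearest listed start was the later CD86 start, at 10.6 and 9.77 kb.

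The last pair lay 46.7 kb beyond the first start, past the later start. Its ab21061 peak, from 122101777 to 122102328, scored 87.67, and its sc8558 peak, from 122101548 to 122102475, scored 155.71. The percentiles were 54.5 and 81.0, a difference of -26.5 points (ab21061 minus sc8558). Among all 4962 overlapping pairs of the 2 lists, 22.8% differed at least that much, and the median difference was 11.5 points. The other CD86 pairs, in order along the gene, differed by -2.6, 1.0 and -2.1 points. An sc8558 peak without an ab21061 counterpart lay between, from 122074604 to 122075281, with a score of 67.86, below the list median of 81.7. It ended 2.5 kb before the later CD86 start, which lies 22.4 kb beyond the first, and the nearest ab21061 peak was 6.33 kb away.

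**Figure D2:**
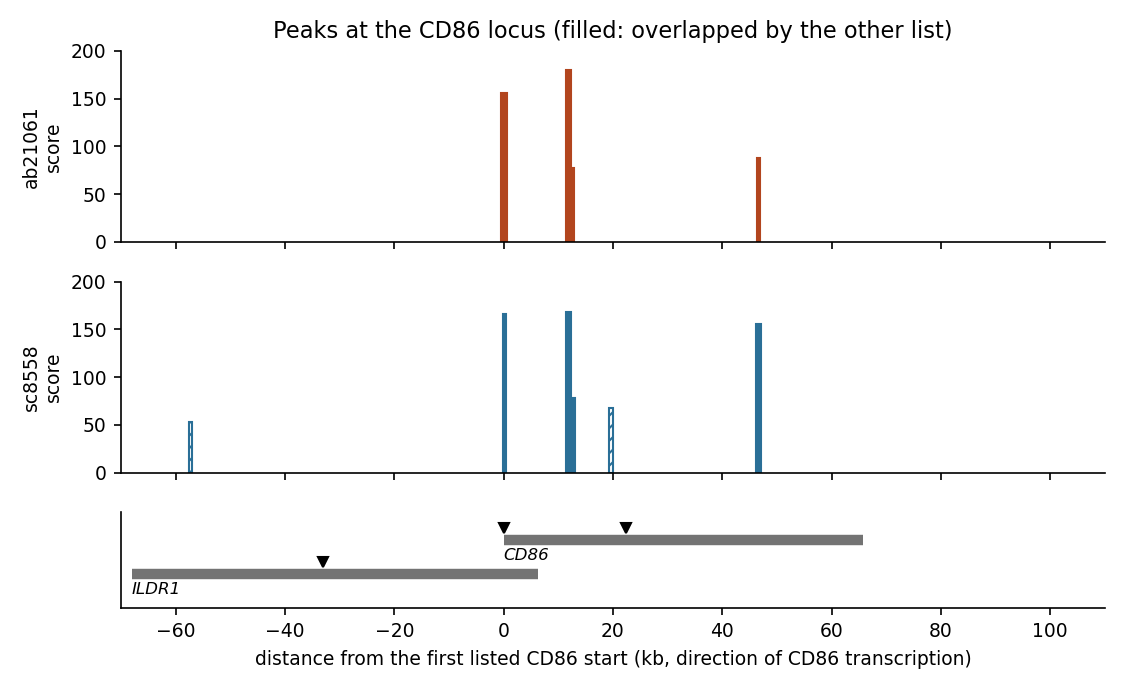
Peaks at CD86 by distance from its first listed start (x axis, kb), with the authors' score as height (y axis) for ab21061 above and sc8558 below. Filled bars overlap a peak of the other list, hatched bars do not, grey bars are gene spans and triangles are listed starts; 4 filled peaks appear in both panels, at the start, side by side at about 12 kb, and at 46.7 kb.

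The members just inside and just outside the window can be set side by side. The farthest peaks inside it were those of the pair 43.7 and 43.8 kb from CD74. The closest outside it were an sc8558 peak 57.3 kb before the CD86 start and an ab21061 peak 65.5 kb before the CD74 start. The sc8558 peak lay inside ILDR1 and scored 53.33, and the ab21061 peak scored 72.32. Neither of these was overlapped by the other list.

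At CD74 the high-scoring pair lay on a neighbouring gene. CD74 lies on chromosome 5 from 150401639 to 150412910 (gene ID 972, minus strand). The pair, from 150357072 to 150358739 with ab21061 and from 150356979 to 150358626 with sc8558, scored 371.99 and 418.26. At percentiles 95.1 and 96.2, these were the highest scores of any member. The midpoints stood 0.208 and 0.105 kb from an end of TCOF1, the gene for the nucleolar protein treacle, which spans 150357697 to 150400293 and separates the pair from CD74. Inside CD74 itself there was 1 ab21061 peak, from 150410729 to 150411584, with a score of 51.14. Its midpoint was 1.75 kb inside the gene from the listed start. The score was close to the lowest in the list, 50.01, at percentile 3.2, and the nearest sc8558 peak was 52.1 kb away.

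The HLA-DMA window likewise held peaks on another gene. HLA-DMA lies on chromosome 6 from 32948618 to 32953097 (gene ID 3108, minus strand). The pair, from 32969576 to 32970734 with ab21061 and from 32969645 to 32971099 with sc8558, scored 129.61 and 207.91, at percentiles 73.7 and 88.1. It lay 17.1 and 17.3 kb from HLA-DMA and inside BRD2, a gene for a bromodomain protein that reads acetylated histones. The sc8558 peak covered the BRD2 start at 32970930 and its whole printed promoter, of which 55 bases lay under the ab21061 peak. An ab21061 peak without a counterpart, from 32967490 to 32968457 with a score of 53.11, lay just before the first BRD2 start at 32968594. No peak of either list lay inside HLA-DMA.

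**Figure D3:**
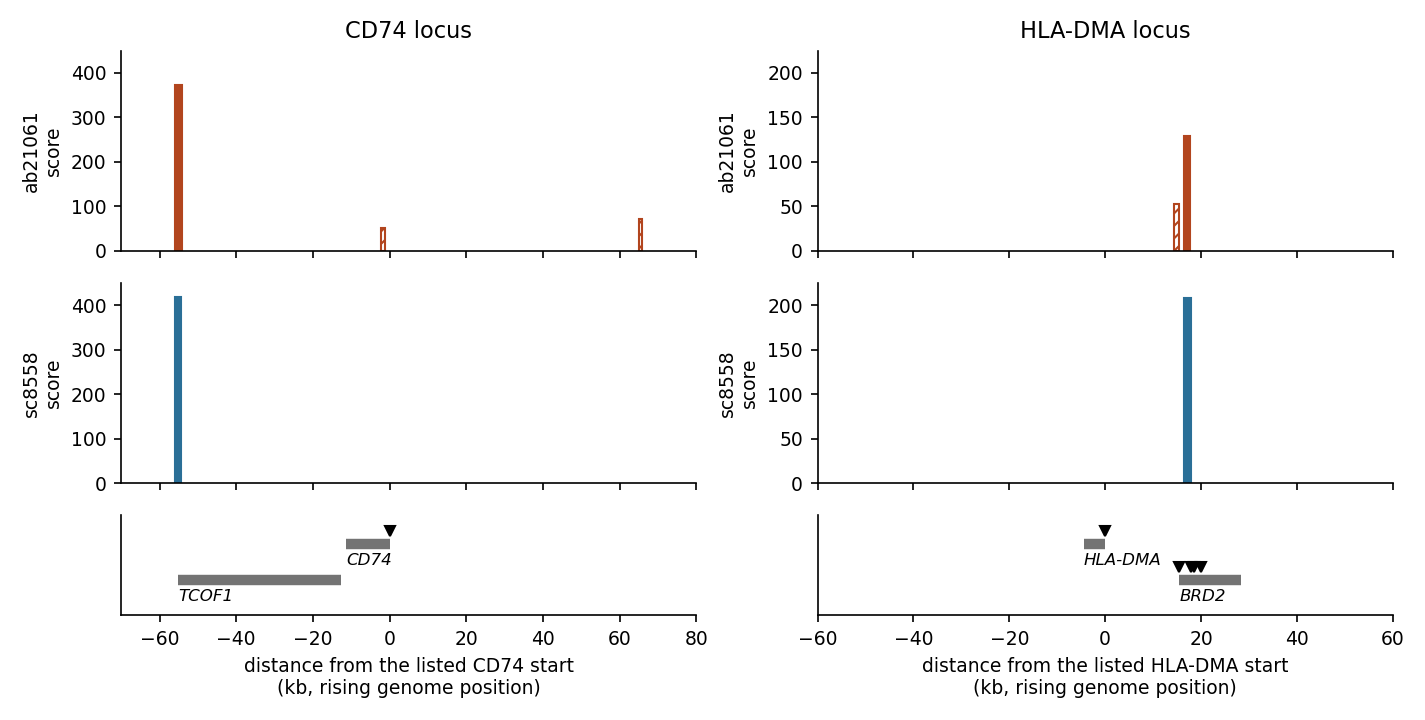
Peaks in and around the CD74 window (left) and the HLA-DMA window (right), by distance from the listed start of each gene (x axis, kb), with the score as height (y axis) for ab21061 above and sc8558 below. Filled bars overlap a peak of the other list and hatched bars do not; the filled pairs stand at the edge of TCOF1 and inside BRD2, away from CD74 and HLA-DMA.

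The members without a peak differed in how far the nearest one lay. The median protein-coding gene was 120 kb from an ab21061 peak and 116 kb from an sc8558 peak. CD80, the other B7 ligand of CD28, was 283 and 434 kb away, and 27.7% and 17.7% of all genes were farther. CD83, a surface marker of mature dendritic cells, was 584 and 322 kb away. CD40, the receptor through which T cells activate antigen-presenting cells, was 285 and 183 kb away. CIITA was close to the median distance, with an overlapping pair 127 kb from it, near NUBP1, that scored 118.19 and 55.08.

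The remaining class II members, on chromosome 6, had no peak in their windows. HLA-DPA1, a chain of HLA-DP, was 94.4 and 94.2 kb from the pair in BRD2. HLA-DRA, the invariable chain of HLA-DR, was 178 kb from an ab21061 peak beside HLA-DQA1 and 525 kb from an sc8558 peak, again the one in BRD2. From HLA-DRA to HLA-DPA1, 641 kb with 17 protein-coding genes, there were 3 ab21061 peaks and 1 sc8558 peak, where the mean density of each list would give 1.6 and 1.57. The third ab21061 peak there, from 32622260 to 32623478, scored 112.37 without an sc8558 counterpart.

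Density gave the same contrast between CD86 and the rest. The CD86 window of 166 kb held 24.1 ab21061 and 30.2 sc8558 peaks per Mb. The windows of the other 8 members held 4.08 and 2.04 per Mb, and the whole annotated genome held 2.49 and 2.45. Since the peaks chose the member windows, these figures describe the loci and carry no test.

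The peaks near members varied widely in score. The 8 ab21061 peaks had a median score of 108.6 (range 51.14 to 371.99) and the 7 sc8558 peaks one of 165.7 (67.86 to 418.26). All peaks of the lists had medians of 82.4 and 81.7. Widths ran from 518 to 1668 bp with ab21061 (median 912) and from 678 to 1648 bp with sc8558 (median 928), beside list medians of 776 and 746 bp. Overlapped by the other antibody were 6 of 8 ab21061 peaks (75%, exact Clopper-Pearson 95% interval 34.9 to 96.8) and 6 of 7 sc8558 peaks (85.7%, 42.1 to 99.6). The whole lists had 63.7% and 65.0%. The intervals cover counting error only and treat neighbouring peaks as separate, and since the loci were selected on these peaks no comparison with the lists is drawn.

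**Figure D4:**
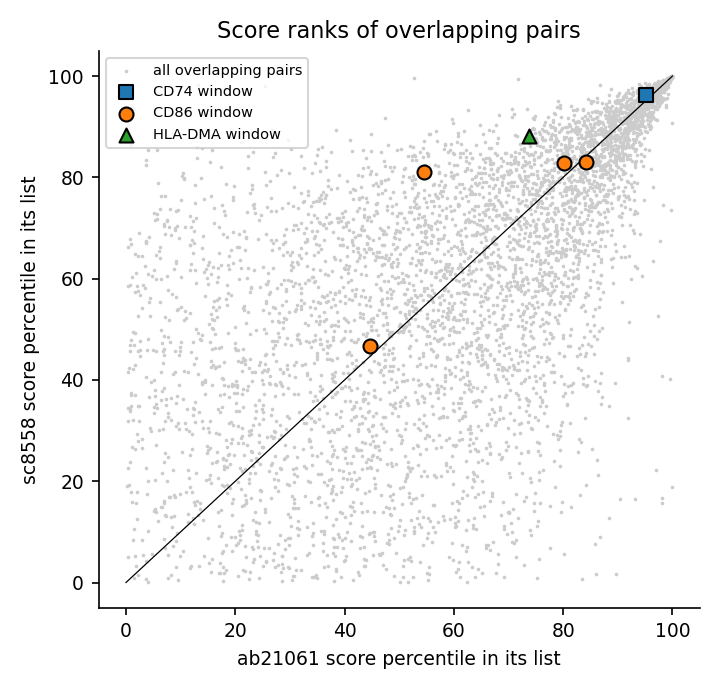
Percentile of the ab21061 score (x axis) and the sc8558 score (y axis), each within its own list, for all 4962 overlapping pairs (grey) and the 6 member pairs (symbols); the line marks equal percentiles. The CD74 pair and 3 of the CD86 pairs lie near the line, and the last CD86 pair and the HLA-DMA pair lie above it.

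The printed promoters were searched on both strands for short motifs, whose matches describe the letters and not binding. AATC occurred in 69.0% of the 35116 promoters of 300 bases, so a match says little. The first CD86 promoter held it in 2 places, at 197 and 58 bases before the start, both within AAATC, a motif in 33.1% of promoters. As many AATC matches were found in 40.2% of promoters, and promoters without a peak had more, 4 at the first CD83 start and 3 at a HLA-DPA1 start. The later CD86 promoter, the CD74 promoter and the BRD2 promoter held 1 match each, and in BRD2 it lay within TGATTCA, a match to the AP-1 motif TGANTCA (7.71% of promoters). The CD74 promoter held 1 and the HLA-DMA promoter 2 matches to ATTGG, the reversed CCAAT box found in class II promoters (34.6% of promoters). The NF-kB pattern, GGG followed after 5 bases by CC (58.7%), had 0 matches in the first CD86 promoter, 4 in the later one, 6 in CD74 and 4 in the printed BRD2 promoter, overlapping matches included. Among these, the later CD86 and the CD74 promoters lay under no peak. Other promoters without a peak had 11 at the later CD83 start and 6 at a HLA-DPA1 start. GC content was 37.0% in the first CD86 promoter, 51.3% in the later one, 54.3% in CD74 and 64.3% in the printed BRD2 promoter. It was 81.3% at that CD83 start and 66.7% at that HLA-DPA1 start, beside a median of 58.7% over all promoters. A link between GC content and the match counts was not tested. The PU.1 motif GAGGAAGT (2.59%) and the STAT pattern TTCNNNGAA (7.66%) had 0 matches in the promoters of the members listed. CD40, CIITA and HLA-DRA had no entry in the promoter table.

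Genes that work with the members were counted in the same way, in 7 lists of 67 genes together. An overlapping pair was in the window of 24 of them (35.8%), against the 24.3% of all protein-coding genes. Neighbours in gene clusters share pairs, so these counts are not independent. Of 10 other MHC class II genes 2 had a pair, HLA-DMB and HLA-DOA, and both counts rest on the pair inside BRD2. Of 7 class II regulators 2 did, NFYB (scores 66.14 and 65.0) and CREB1 (59.22 and 74.69), which encode factors that bind class II promoters. These pairs lay 7.85 kb from NFYB and 26.9 kb from CREB1, each nearer to an end of another gene.

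Of 7 genes for class II peptide loading and turnover 3 had a pair, beside 24.3% of all protein-coding genes. IFI30, a lysosomal thiol reductase gene, had one of 880.74 and 966.17, although 0.734 kb from MPV17L2. LGMN, a lysosomal protease gene, held one of 436.65 and 458.36 inside it. MARCHF8, a ubiquitin ligase gene whose product lowers surface class II and CD86, held one of 313.07 and 301.6 inside it.

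Class I and lipid presentation genes were mixed. Of 18 class I presentation genes 4 had a pair, beside 24.3% of all protein-coding genes. HLA-G had one of 440.55 and 439.62 at 17.7 kb, and B2M, the light chain of class I molecules, one of 228.82 and 274.46 at 6.56 kb. ERAP1 and ERAP2, peptide-trimming enzymes, shared one of 93.38 and 92.79. Of 5 CD1 genes, which present lipids, CD1A, CD1B and CD1C had the same best pair, 0.254 kb from an end of CD1A, with scores of 443.08 and 414.12.

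Costimulatory or coinhibitory ligands other than the members had a pair at 6 of 11 genes, beside 24.3% of all protein-coding genes. CD58, the ligand of CD2, had one of 823.65 and 1133.71 that lay inside IGSF3. TNFSF9, the 4-1BB ligand gene, had one of 144.37 and 128.73 at 0.427 kb from an end, which also fell in the window of CD70. CD274, the PD-L1 gene, had one of 76.7 and 111.43, at 0.359 kb from an end of PLGRKT. Of 9 partner receptors on lymphocytes 4 had a pair, CD2, TNFRSF4, CD27 and CD28, beside the same 24.3%. The best pair of CD2 lay 48.4 kb from the gene. That of TNFRSF4 lay 2.73 kb away and nearer to an end of TNFRSF18, at 2.28 kb. The CD27 pair lay 42.0 kb away and over another gene. The CD28 pair scored 66.25 and 74.62 and lay 46.5 kb from the gene.

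Markers of other cells that display these proteins were counted as well. An overlapping pair was near 2 of 6 B cell markers, 3 of 8 dendritic cell markers and 4 of 4 monocyte markers. The share over all protein-coding genes was 24.3%, and the lists are small. Of the B cell markers, CD22 had a pair of 123.31 and 152.43 at 27.9 kb, nearer to an end of GPR42 (2.2 kb). PAX5 held a pair of 69.8 and 63.86 inside it. Of the dendritic cell markers, FLT3 held a best pair of 427.01 and 278.49 inside it, and CD1C had the pair on CD1A (443.08 and 414.12). BATF3 had one of 61.36 and 55.36 at 49.6 kb, nearer to an end of GARIN4 (10.1 kb). The best pair of CD14 (587.19 and 682.21) lay 19.8 kb from the gene and inside TMCO6, and that of LYZ (476.45 and 415.87) lay 10.1 kb outside it. The best pair of FCGR1A (413.81 and 450.23) also overlapped H2BC18 and LOC124904411, and that of CSF1R (141.68 and 138.39) lay inside the gene. A pair near a marker says nothing about the makeup of the culture.

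**Figure D5:**
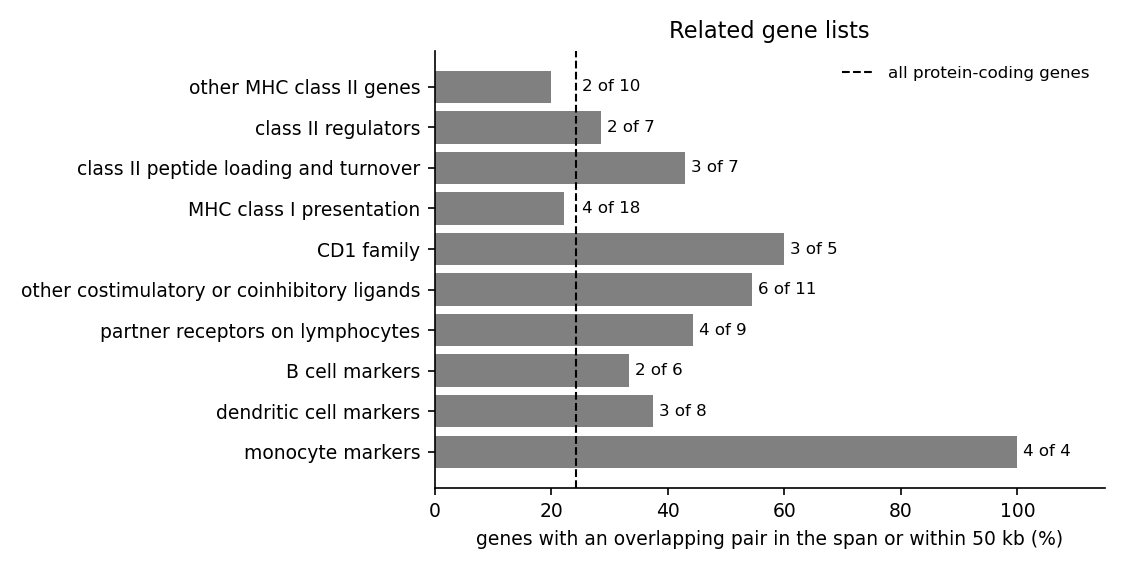
Share of each list (x axis, percent) with an overlapping pair in the gene span or within 50 kb, for 7 lists of related genes and 3 lists of cell markers (y axis), with counts beside the bars. The dashed line is the 24.3% of all protein-coding genes; 2 of 10 other class II genes and 4 of 4 monocyte markers are the lowest and highest shares.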

How the data were processed

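Peak lists of 2 libraries, 1 for each antibody, were used. Per the submitters' processing notes, the authors used Bowtie2 2.2.9 and MACS 1.4.2 with the hg38 build. The options, filters and control were not given in the sources used here. Each peak carries the authors' deposited score. Lists were made per library, depth is unknown and scores were ranked only within a list.

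Gene spans, starts and promoters came from RefSeq tables on GRCh38.p14, the same primary assembly, in which each member was matched by symbol and 6 of the 9 had a listed start. Coordinates are 1-based. The genome length for densities ran from the first to the last annotated gene of each chromosome. Code was checked on simulated peaks. Software was Python 3.11.15 with scipy 1.17.1, pandas 2.3.3, numpy 2.4.6 and matplotlib 3.10.9. Members and lists were chosen with earlier results of these data known. Genes were named by rule: the members, up to 4 genes of each list by the worse rank of their best pair, the 5 genes most like CD86, and the genes nearest to member peaks. Genes that mark the place of a peak or pair outside the member windows, such as MPV17L2, IGSF3 and NUBP1, fall outside the rule. RHOH, SLA, EDN1 and ERMP1 fall outside it too and were named after their values were seen. With 1 library per antibody no test between antibodies was made. Alternatives were other windows, a score of 100 or more, equal list lengths, stricter overlap and all gene types.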

Additional observations from a re-analysis of the deposited data

How the results depend on the processing

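Of 45 alternative values 35 stayed within the range set for them and 10 did not. The cause was not tested except where a narrower window or fewer peaks enter by construction. The ranges were wide, so the 35 are no measure of robustness. Gene counts were allowed a fixed ratio, under which ab21061 members going from 3 to 2 or to 4 counted as unchanged. Median scores were held against the full range of the same member peaks, which a narrower window cannot leave. Members with an sc8558 peak numbered 1 with the gene span alone and 1 with 10 kb either side, and members with an overlapping pair likewise 1 and 1, CD86 in each case. Leaving out peaks that overlap another protein-coding gene but not the member, chosen after seeing the data, also left 1 member with a pair, CD86. At a score of 100 or more, 100% of the 4 ab21061 member peaks (interval 39.8 to 100) and 80% of the 5 sc8558 ones were overlapped, beside 70.3 and 72.2% of all peaks. The share of genes with a pair was 19.1% for all gene types, 12.6% at a score of 100 or more, 12.8% with 10 kb and 35.8% with 100 kb either side. No paired analysis was possible because each antibody had 1 library, and none could be left out. Depth is unknown, so peaks in 1 list alone were not read as a difference between the antibodies.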

Other observations

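The 5 genes whose pattern was most like CD86 were taken from 19 protein-coding genes that also had 4 ab21061 and 5 sc8558 peaks in the window, by the distance between the percentiles of their highest peaks over the 2 libraries. TNFSF10, the gene for the death ligand TRAIL, came first at a distance of 3.74 points, with highest scores of 184.52 and 195.75 and 5 pairs. IFRD1 and LOC128031837, which lie in the same place on chromosome 7, followed at 3.81 points with 211.31 and 158.37. LOC107986837 and SMIM30, also neighbours on chromosome 7, came next at 4.26 points with 197.32 and 196.31.

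The 5 genes of 50 to 100 kb with at least 3 regions in their span after pairs less than 1 kb apart were joined were CD86, RHOH, EDN1, SLA and ERMP1, named after their values were seen.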
